A study of Drosophila melanogaster with 18 samples.

Results

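In Nxt1 trans-heterozygous Drosophila melanogaster, whole animals at the start of the prepupal stage were compared with larvae that had just stopped moving. The comparison covers 6 of the 18 samples of the study, 3 of Nxt1 prepupae and 3 of Nxt1 stationary larvae. Messenger RNA was measured by paired-end RNA sequencing of whole animals. The Nxt1 animals carried the alleles DG05102 and Z2-0488 in trans and are labelled with the strain yw. The control animals are labelled w1118, a white-eyed laboratory strain, so alleles and strain background cannot be told apart wherever w1118 is set beside Nxt1. All larvae fed on food with 0.05% bromophenol blue, and stationary larvae were taken once immobile with clear or pale guts, white prepupae within their first hour with a still white case. Stages were therefore matched by appearance and not by clock time. The labels give neither the sex nor the number of animals in a sample.

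The deposited values are 1 FPKM, a level scaled to transcript length and sequenced fragments, per gene, genotype and stage, pooled over the 3 samples, so no value per sample can be shown and no depth is known. Of 14542 gene entries, 10578 had 1 FPKM or more at either stage in Nxt1 and are described here. For each, the step is the log2 ratio of FPKM + 1, prepupae over stationary larvae, minus the median of that ratio (-0.01) over the 9763 entries with 1 FPKM or more at both stages. That centring was used because each stage had its own table and scaling. A step of 1 is therefore 2-fold higher in prepupae on the scale of FPKM + 1. Folds below are on that scale, which shrinks those of entries with low FPKM. No test of a step is possible. An error of the Nxt1 over w1118 ratio, as estimated by the authors' software, is known, however, at each stage. Both errors combined are an upper limit on the error of an Nxt1 step, called here its error ceiling. That limit leaves out any error from the separate scaling of the stages. In whole animals, fewer cells of a type and less RNA per cell cannot be told apart.

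Pupariation is set off by a pulse of the steroid 20-hydroxyecdysone, which binds the receptor EcR with its partner usp. The bound receptor turns on early regulators such as br, Eip74EF and Eip75B, and these switch tissue programmes in turn. Larval salivary glands secrete glue that fixes the animal to its support, the cuticle of the last larval instar is tanned into the pupal case, the gut is emptied and rebuilt, and larval muscle begins to be dismantled. Nxt1 is the small partner of sbr, the fly NXF1, and the pair carries messenger RNA through the nuclear pore.

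More entries were at least 2-fold lower than at least 2-fold higher in Nxt1 prepupae. The step was 1 or more for 333 of 10578 entries (3.15%) and -1 or less for 804 (7.6%). At 4-fold, 92 entries were higher and 331 lower, and at 16-fold 16 were higher and 61 lower. Most of the transcriptome lay close to the centre, with 80.7% of entries within 1.5-fold of it. The error ceiling was known for 243 of the higher entries, and the step exceeded 2 ceilings for 192 of them. For the lower entries these numbers were 506 and 363. All these entries were picked for a large step, which favours passing 2 ceilings, so the counts are no test of the steps. Entries that were lower had a median locus span of 2274 bases, those that were higher 3578 bases and the remaining entries 4270 bases.

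**Figure D1:**
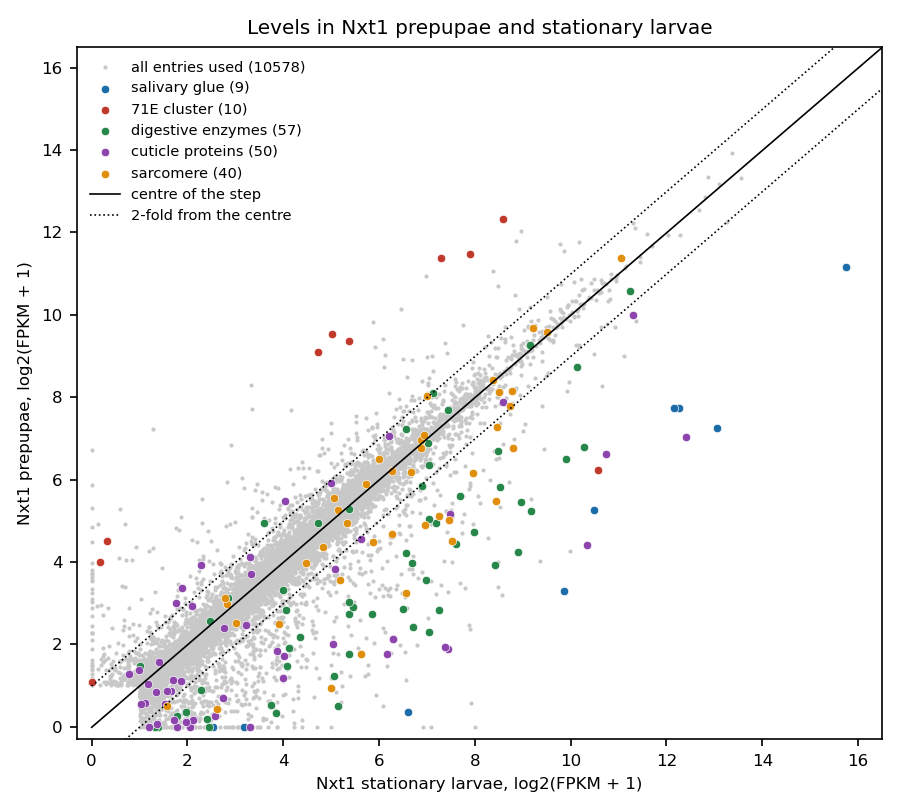
Each point is 1 gene entry with its level in Nxt1 prepupae on the vertical axis and in Nxt1 stationary larvae on the horizontal axis, both as log2(FPKM + 1), 1 pooled value of 3 samples. The solid line is the centre and the dotted lines mark 2-fold from it. All 9 salivary glue genes lie below the lower dotted line, 9 of the 10 measured genes of the 71E cluster lie above the upper one, and 43 of the 57 measured members of the digestive list lie below.

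In w1118 controls the same step was 1 or more for 283 of 11296 entries (2.51%) and -1 or less for 470 (4.16%). Across the 10245 entries used in both genotypes, the steps of Nxt1 and w1118 had a Pearson r of 0.75, given as a description, since both steps use the same pair of tables and genes are not replicates. Of the 306 entries that were at least 2-fold higher in Nxt1 prepupae and used in both genotypes, 291 had a positive step in w1118. Of the 688 that were at least 2-fold lower, 645 had a negative step in w1118.

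The early ecdysone response list held 31 measured genes, of which 5 were at least 2-fold higher and 1 at least 2-fold lower in Nxt1 prepupae. Those shares were 16.1% and 3.23%, against 3.15% and 7.6% over all entries. The median step of the list was 0.13, against -0.01 over all entries. The receptor gene EcR was the member that was lower, with 15.1 FPKM in prepupae and 46.1 FPKM in stationary larvae (step -1.53, error ceiling 0.35). The entry that holds its partner usp, merged with Actn, had 73.1 FPKM in prepupae and 76.7 FPKM in stationary larvae. EcR was thus past 2-fold and the merged usp entry close to the centre.

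Among the early regulators, the highest was br, which encodes the Broad zinc-finger factors, with 289.5 FPKM in prepupae and 314.1 FPKM in stationary larvae. Eip74EF, an ETS-domain factor, had 34.1 FPKM in prepupae and 66.8 FPKM in stationary larvae (step -0.94, ceiling 0.28). Eip75B, a haem-binding nuclear receptor, had 101.8 FPKM in prepupae and 80.7 FPKM in stationary larvae. None of these reached 2-fold at the level of the gene. Eip78C, another nuclear receptor, had 58.0 FPKM in Nxt1 prepupae and 53.3 FPKM in Nxt1 stationary larvae, against 36.2 and 69.0 FPKM in w1118 prepupae and stationary larvae.

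The 5 members that were higher act later in the cascade or in the imaginal discs, the precursors of the adult body wall. ImpL1, an ecdysone-inducible disc gene, had 60.5 FPKM in prepupae and 6.07 FPKM in stationary larvae (step 3.13, ceiling 0.47). Eip93F, a factor that directs the removal of larval salivary gland and midgut, had 95.7 FPKM in prepupae and 26.1 FPKM in stationary larvae (step 1.85, ceiling 0.26). The entry of Hr46, the nuclear receptor that drives the prepupal gene ftz-f1, is merged with CG12912 and had 106.4 FPKM in prepupae and 29.5 FPKM in stationary larvae (step 1.83, ceiling 0.39). Blimp-1, a repressor that sets the timing of ftz-f1, and ImpE3, another disc gene, followed with steps of 1.69 and 1.18. ftz-f1 itself, a gene of the middle of the prepupal stage, was low at both stages, with 1.90 FPKM in prepupae and 3.27 FPKM in stationary larvae. Cyp18a1, which inactivates ecdysone, had 4.32 FPKM in prepupae and 1.72 FPKM in stationary larvae. Its step of 0.98 stayed just under 1, and adding 1 to each FPKM shrinks the fold at such levels.

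**Figure D2:**
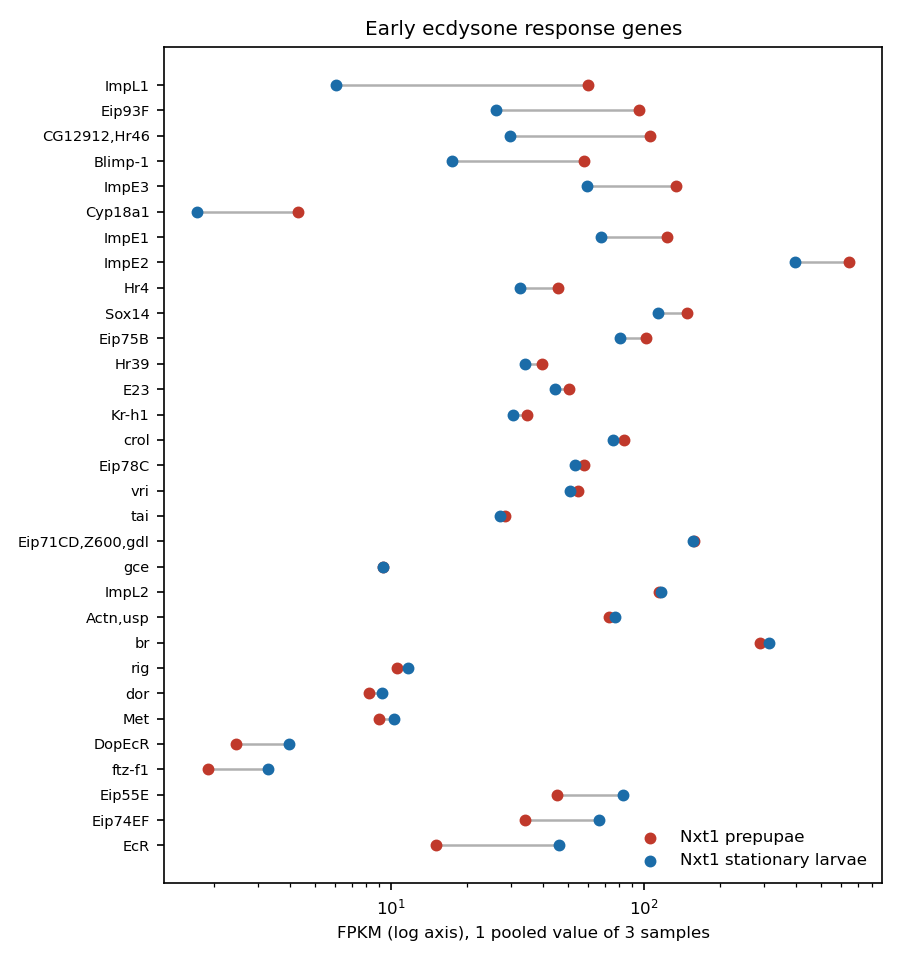
FPKM on a log axis for the 31 measured genes of the early ecdysone response list, with red points for Nxt1 prepupae and blue points for Nxt1 stationary larvae, ordered by the step, which is largest at the top. The red and blue points are farthest apart for ImpL1, at 60.5 FPKM in prepupae and 6.07 FPKM in stationary larvae, and EcR lies at the other end with 15.1 and 46.1 FPKM.

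Of 13 measured genes of ecdysone synthesis, 1 was at least 2-fold lower and none was higher, with a median step of -0.24. The 7.69% that were lower are near the 7.6% over all entries, of which 3.15% were higher. The lower gene was shd, which makes the active hormone from ecdysone outside the prothoracic gland. It had 18.1 FPKM in prepupae and 60.7 FPKM in stationary larvae (step -1.68, ceiling 0.39), and its w1118 step was -1.69. In the gland itself, spok had 8.45 FPKM in prepupae and 15.1 FPKM in stationary larvae, phm had 5.88 and 9.35 FPKM, and sad had 13.3 and 12.5 FPKM.

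All 9 measured salivary glue genes (100%, against 7.6% over all entries) were at least 2-fold lower in Nxt1 prepupae, with a median step of -4.59. Together they took 0.479% of the summed FPKM in prepupae and 11.5% in stationary larvae. Sgs7, the most abundant transcript of the list, had 2276 FPKM in prepupae and 55332 FPKM in stationary larvae (step -4.59, ceiling 0.32). Sgs3, a large mucin-like glue protein, had 151.9 FPKM in prepupae and 8545 FPKM in stationary larvae (step -5.79, ceiling 0.36). Sgs1 had 8.78 FPKM in prepupae and 930.6 FPKM in stationary larvae (step -6.56, ceiling 0.42), the lowest step among genes with an informative symbol that were listed above 0 at both stages and reached 10 FPKM. The 3 measured new-glue genes ng1, ng2 and ng3 followed the same direction, and ng1 and ng2 were listed at 0 in prepupae with 4.80 and 8.08 FPKM in stationary larvae. The share of the glue genes in w1118 was 0.285% in prepupae and 9.88% in stationary larvae.

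The 71E cluster, small secreted proteins of the late salivary gland encoded side by side on arm 3L, had the opposite direction. Of 10 measured genes, 9 (90%) were at least 2-fold higher and 1 (10%) lower in Nxt1 prepupae, against 3.15% and 7.6% over all entries. The cluster had a median step of 3.92, and its share of the summed FPKM was 2.09% in prepupae and 0.363% in stationary larvae. Eig71Ea had 5106 FPKM in prepupae and 382.0 FPKM in stationary larvae (step 3.75, ceiling 0.25). Eig71Ed had 2657 FPKM in prepupae and 156.8 FPKM in stationary larvae, and Eig71Ef had 742.8 and 31.2 FPKM. These genes had been far lower in Nxt1 wandering larvae, where Eig71Ea had 14.9 FPKM and Eig71Ef 0.437 FPKM. The exception was Eig71Ee, which had 74.6 FPKM in prepupae and 1523 FPKM in stationary larvae (step -4.32, ceiling 0.31). It had been at 3399 FPKM in wandering larvae, so its order over the stages was that of the glue genes. In w1118, 9 of 10 measured genes of the cluster were likewise at least 2-fold higher, and Eig71Ee had 41.5 FPKM in prepupae and 1604 FPKM in stationary larvae.

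**Figure D3:**
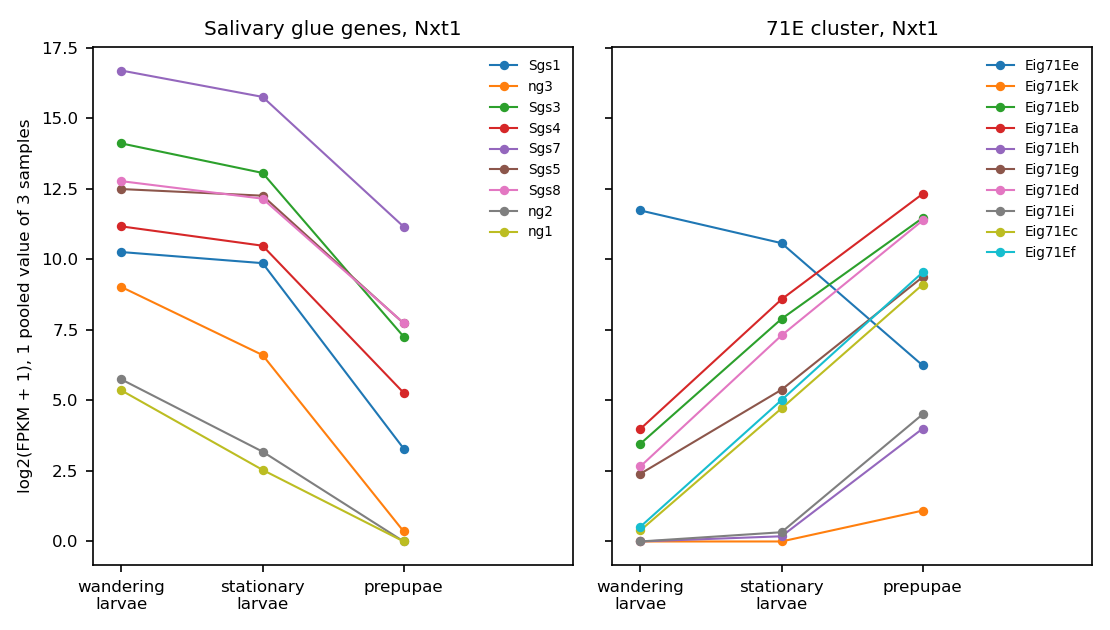
Levels of the 9 measured salivary glue genes (left) and the 10 measured 71E cluster genes (right) in Nxt1 wandering larvae, stationary larvae and prepupae, as log2(FPKM + 1), 1 pooled value of 3 samples at each stage and with each stage scaled separately. Every glue gene is lowest in prepupae, and every 71E gene except Eig71Ee is highest there.

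Genes that harden and darken the cuticle formed a mixed list with a positive median. Of 40 measured genes of tanning and chitin, 8 were at least 2-fold higher and 5 lower in Nxt1 prepupae, with a median step of 0.44. These were 20% and 12.5% of the list, against 3.15% and 7.6% over all entries. In the tanning pathway, ple, the tyrosine hydroxylase that makes dopa, had 2974 FPKM in prepupae and 929.8 FPKM in stationary larvae (step 1.69, ceiling 0.47). The next enzyme, Ddc, which makes dopamine, went the other way with 89.2 FPKM in prepupae and 191.5 FPKM in stationary larvae (step -1.08, ceiling 0.28). Dat, which acetylates dopamine, had 205.8 FPKM in prepupae and 17.0 FPKM in stationary larvae (step 3.54, ceiling 0.35). The gene e, whose enzyme joins dopamine to beta-alanine, had 637.1 FPKM in prepupae and 164.8 FPKM in stationary larvae (step 1.96, ceiling 0.26). The gene b, which supplies the beta-alanine, was just inside 2-fold with 200.1 FPKM in prepupae and 103.5 FPKM in stationary larvae (step 0.96).

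On the chitin side, the chitin-binding matrix protein obst-A had 478.2 FPKM in prepupae and 101.6 FPKM in stationary larvae (step 2.24). The chitinase Cht5 had 185.4 FPKM in prepupae and 44.9 FPKM in stationary larvae (step 2.04). Cda9, a chitin deacetylase, was lower, with 2.08 FPKM in prepupae and 21.5 FPKM in stationary larvae (step -2.85, ceiling 0.84). Of the Osiris and yellow families, 5 of 14 measured genes (35.7%) were at least 2-fold higher and 2 (14.3%) lower. Over all entries these shares were 3.15% and 7.6%. In these families, Osi6 had 19.3 FPKM in prepupae and 1.44 FPKM in stationary larvae.

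Genes of cuticle proteins, of the Lcp, Cpr and Twdl families among others, were more often lower than higher in Nxt1 prepupae. Of 50 measured cuticle protein genes, 26 (52%) were at least 2-fold lower, 4 (8%) were higher and 20 lay between. Their median step was -1.11, and over all entries 7.6% were lower and 3.15% higher. Lcp1 had 130.5 FPKM in prepupae and 5443 FPKM in stationary larvae, and Lcp2 had 20.1 and 1291 FPKM (steps -5.36 and -5.92, ceilings 0.38 and 0.50). Lcp3 and Lcp4 lie beside them on arm 2R, in a run of 5 neighbouring entries from 4317801 to 4330311 that were all at least 2-fold lower. The last entry of that run was Cyp4ad1, a cytochrome P450 gene. The 4 cuticle protein genes that were higher were TwdlT, Cpr67Fa2, Cpr47Ee and Cpr97Ea, with steps between 1.25 and 1.67. Positions are those of the deposited tables, with starts counted from 1 and a genome build that is not given in the sources used here.

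Genes of digestion were mostly lower. The list was drawn by symbol and holds proteases, amylases, maltases, lysozymes and lipases, the Npc2 sterol-binding proteins and Magi, a scaffold protein that is no enzyme. Of its 57 measured members, 43 were at least 2-fold lower and 1 higher in Nxt1 prepupae, with a median step of -2.21. These were 75.4% and 1.75% of the list, against 7.6% and 3.15% over all entries. The Npc2 genes made up 7 of the measured members and 3 of the lower ones. Amy-p, an amylase, had 3.93 FPKM in prepupae and 131.7 FPKM in stationary larvae (step -4.74, ceiling 0.51). Jon99Ciii, a serine protease of the Jonah family, had 110.2 FPKM in prepupae and 1234 FPKM in stationary larvae (step -3.46, ceiling 0.28). The member with the opposite direction was Npc2b, a sterol-binding protein, with 29.98 FPKM in prepupae and 11.1 FPKM in stationary larvae. Many of these genes are tandem copies, so reads of near-identical neighbours such as Amy-p and Amy-d or the Lys genes may have been shared between them. A run of 10 neighbouring trypsin entries on arm 2R, from 7225300 to 7243998, was at least 2-fold lower throughout. In all, 26 runs of 4 or more neighbouring entries were at least 2-fold lower and 3 were at least 2-fold higher. The longest run of higher entries held 8, from 15649755 to 15680732 on arm 3L. It began in the 71E cluster at Eig71Ef and ended with CG43082, CG7304 and pgant8, which are not members of that list.

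**Figure D4:**
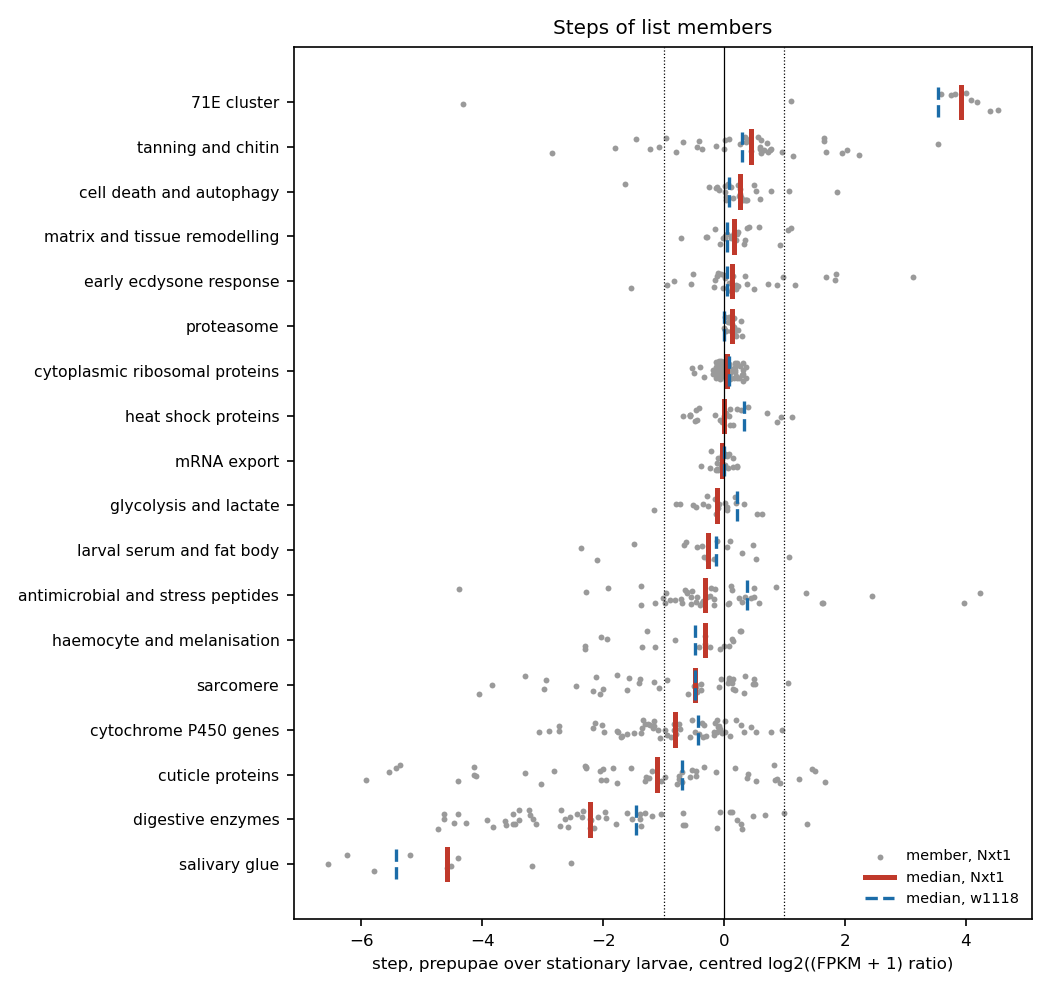
Steps of the members of 18 gene lists, with 1 grey point per measured member in Nxt1, a red bar at the Nxt1 median and a dashed blue bar at the w1118 median, on the centred log2((FPKM + 1) ratio) scale of prepupae over stationary larvae. Dotted lines mark 2-fold. The Nxt1 medians run between 3.92 for the 71E cluster and -4.59 for salivary glue, and those of the proteasome, ribosomal proteins, heat shock proteins and mRNA export lie between -0.03 and 0.13.

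Among detoxification genes, more members were at least 2-fold lower than higher, and most lay within 2-fold. Of 60 measured cytochrome P450 genes, 25 were at least 2-fold lower, none was higher and 35 lay between, with a median step of -0.81. The lower share was 41.7%, against 7.6% over all entries, of which 3.15% were higher. Cyp28a5 had 1.73 FPKM in prepupae and 19.6 FPKM in stationary larvae. Of 38 glutathione transferase and UGT genes, 8 (21.1%) were at least 2-fold lower, 2 (5.26%) were higher and 28 lay between. Their median step was -0.12. Uro, the urate oxidase of the Malpighian tubules, had 0.691 FPKM in prepupae and 60.01 FPKM in stationary larvae (step -5.16).

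Genes of the contractile apparatus of muscle were among the lower entries. Of 40 measured sarcomere genes, 17 were at least 2-fold lower and 1 higher in Nxt1 prepupae, with a median step of -0.48. These were 42.5% and 2.5% of the list, against 7.6% and 3.15% over all entries. Mhc, the muscle myosin heavy chain, had 2.41 FPKM in prepupae and 47.9 FPKM in stationary larvae (step -3.83, ceiling 0.55). Its light chains Mlc1 and Mlc2 had steps of -2.99 and -3.30, and the muscle actin Act57B had 43.7 FPKM in prepupae and 347.3 FPKM in stationary larvae (step -2.95, ceiling 0.28). The troponin C gene TpnC47D had 0.910 FPKM in prepupae and 30.9 FPKM in stationary larvae. By contrast the cytoplasmic actin Act5C had 2651 FPKM in prepupae and 2130 FPKM in stationary larvae. The member that was higher was tmod, a capping protein of actin filaments, with 261.6 FPKM in prepupae and 126.6 FPKM in stationary larvae (step 1.05). Over the 3 stages in their own order, Mhc had 141.2 FPKM in wandering larvae, 47.9 FPKM in stationary larvae and 2.41 FPKM in prepupae.

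The most abundant transcripts of the fat body, which makes the storage proteins of the larval blood, differed by less than 2-fold. Lsp2 had 5986 FPKM in prepupae and 6575 FPKM in stationary larvae, and Fbp1, the receptor for storage protein uptake, had 10335 and 7485 FPKM. Of 17 measured genes, 3 (17.6%) were at least 2-fold lower and 1 (5.88%) higher, against 7.6% and 3.15% over all entries. The lower ones were the larval serum proteins Lsp1alpha, Lsp1beta and Lsp1gamma. Lsp1alpha had 308.5 FPKM in prepupae and 1607 FPKM in stationary larvae (step -2.36, ceiling 0.31). Rfabg, the apolipophorin that carries lipid in the blood, was the 1 member that was at least 2-fold higher, with 827.4 FPKM in prepupae and 395.6 FPKM in stationary larvae. Of 19 haemocyte and melanisation genes, 7 (36.8%) were at least 2-fold lower, none was higher and 12 lay between. Among the lower ones was the haemocyte gene Hml, with 0.677 FPKM in prepupae and 5.49 FPKM in stationary larvae. The other haemocyte markers, Pxn and nimC1, stayed within 2-fold, with steps of -0.06 and -0.32.

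Among genes of tissue removal, a few members passed 2-fold. Of 28 measured genes of cell death and autophagy, 2 were at least 2-fold higher and 1 lower, with a median step of 0.26. Those shares were 7.14% and 3.57%, against 3.15% and 7.6% over all entries. The death inducer rpr had 96.1 FPKM in prepupae and 25.8 FPKM in stationary larvae (step 1.87, ceiling 0.31). Nc, the initiator caspase Dronc, had 104.8 FPKM in prepupae and 49.7 FPKM in stationary larvae (step 1.07, ceiling 0.25). Of 23 genes of matrix and tissue remodelling, 2 (8.7%) were at least 2-fold higher. These were the protease Sb, which is needed for disc eversion, and the matrix metalloproteinase Mmp2. Mmp1 had 258.9 FPKM in prepupae and 137.3 FPKM in stationary larvae (step 0.92).

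Ilp8, a relaxin-like peptide made by damaged discs and by the epidermis at pupariation, had the largest step among genes with an informative symbol that were listed above 0 at both stages and reached 10 FPKM. It had 148.7 FPKM in Nxt1 prepupae and 1.43 FPKM in Nxt1 stationary larvae (step 5.96, ceiling 0.99), and the w1118 step was 5.87. Thor, the translation inhibitor 4E-BP, had 829.4 FPKM in prepupae and 1934 FPKM in stationary larvae (step -1.21, ceiling 0.25). These were the 2 members past 2-fold of 23 measured genes of insulin, TOR and growth. Each direction thus held 4.35% of the list, against 3.15% higher and 7.6% lower over all entries. Nplp2, a neuropeptide-like precursor, had 0.594 FPKM in prepupae and 17.4 FPKM in stationary larvae, with a wide ceiling of 2.04.

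Immune and stress peptides had members at both ends. Of 48 measured, 6 were at least 2-fold higher and 7 lower in Nxt1 prepupae, with a median step of -0.31, against 11 higher and 1 lower of 45 in w1118 with a median step of 0.38. The Nxt1 shares were 12.5% higher and 14.6% lower, against 3.15% and 7.6% over all entries. Over all entries in w1118, 2.51% were higher and 4.16% lower. The recognition protein gene PGRP-SB2 had 913.2 FPKM in prepupae and 58.0 FPKM in stationary larvae (step 3.97, ceiling 0.29). Drsl5, a drosomycin-like peptide gene, had 3511 FPKM in prepupae and 1152 FPKM in stationary larvae (step 1.62). TotC, a stress-induced Turandot gene, had 5.18 FPKM in prepupae and 129.3 FPKM in stationary larvae (step -4.38, ceiling 1.05). The diptericin gene Dpt had 364.8 FPKM in prepupae and 713.5 FPKM in stationary larvae, and it had been at 77.5 FPKM in wandering larvae.

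Several house-keeping lists had no member past 2-fold in either direction. These were the 92 measured cytoplasmic and 75 mitochondrial ribosomal protein genes, 26 proteasome, 24 respiratory chain and ATP synthase and 27 DNA replication entries. The others were 24 neuronal and 24 mRNA export entries, 8 entries of the histone list and the 10 strain markers and dosage compensation genes. The histone list was drawn by symbol, and its member HisCl1 is a channel gene and no histone. Over all entries, 3.15% were higher and 7.6% lower. The Nxt1 gene itself had 17.9 FPKM in Nxt1 prepupae and 15.5 FPKM in Nxt1 stationary larvae, against 10.6 and 11.5 FPKM in w1118 prepupae and stationary larvae. The labels do not say what either allele does to the transcript, so this level is no check of the genotype. Its partner sbr had 41.3 FPKM in prepupae and 42.7 FPKM in stationary larvae. The muscle gene abba, a TRIM protein also called thin, had 45.5 FPKM in prepupae and 32.2 FPKM in stationary larvae (step 0.50, ceiling 0.27). Marker genes of muscle, fat body, salivary gland, midgut, haemocytes, neurons, testis and prothoracic gland, 24 in all, were all above 0 at both Nxt1 stages. Some were low, with Mal-A1 at 0.434 FPKM, dib at 0.577 FPKM and Hml at 0.677 FPKM in Nxt1 prepupae. All testis markers were lower in Nxt1 than in w1118 at both stages. Among them, dj had 1.87 FPKM in Nxt1 prepupae and 3.47 FPKM in Nxt1 stationary larvae, against 88.2 and 107.4 FPKM in w1118. A level above 0 is therefore no measure of how much of a tissue was present.

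Among genes known only by a number, CG33998 was far higher, with 313.6 FPKM in prepupae and 9.09 FPKM in stationary larvae (step 4.98, ceiling 0.77). CG32198 was far lower, with 0.480 FPKM in prepupae and 241.4 FPKM in stationary larvae (step -7.34, ceiling 2.03). Short RNA entries (snoRNAs and microRNA precursors) made up 4 of the 12 highest steps and 3 of the 12 lowest steps of entries with an informative symbol and 10 FPKM or more, and each of these 7 was listed at 0 at one stage, so no fold is given for them. Of the 21 entries under 1 FPKM in stationary larvae and at 10 FPKM or more in prepupae, 11 were short RNAs, and of the 45 with the opposite pattern 8 were.

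Whether the Nxt1 step differed from the w1118 step was tested for 10338 entries, with a two-sided normal test on the deposited errors and Benjamini-Hochberg adjustment over all of them. The scaling of a stage cancels in this difference, since both genotypes share the table. It was positive at an adjusted p of 0.05 or less for 32 entries (0.31%) and negative for 57 (0.551%). In 54 of the 57 negative cases the gene was higher in Nxt1 than in w1118 stationary larvae, and its Nxt1 step was negative in all 57. In 29 of the 32 positive cases the gene was lower in Nxt1 than in w1118 stationary larvae. The genotypes were farther apart in stationary larvae than in prepupae for 42 of the 57 and for 20 of the 32. These splits use the same ratios that form the difference. A call in a given direction favours them by construction, so they only describe the called entries. With the SE raised by a factor of 1.5, 5 positive and 7 negative differences remained, namely CG13722, CG14664, Muc26B, CG34193 and CG17386, and 5 of the Hsp70 entries, Act57B and CG43085. Every other difference described here lost its call under that setting.

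Of 27 tested heat shock entries, 6 had negative differences, against 0.551% of all tested entries, and all 6 were Hsp70 entries. Hsp70Bb, an inducible chaperone gene, had 60.8 FPKM in Nxt1 prepupae and 99.0 FPKM in Nxt1 stationary larvae, against 35.0 FPKM in w1118 prepupae and 11.2 FPKM in w1118 stationary larvae. The difference of its steps was -2.35 ± 0.30 (SE, adjusted p 1.0e-10 by the two-sided normal test). The Nxt1 values lay above those of w1118 at both stages, by more in stationary larvae, and the w1118 step was positive while that of Nxt1 was negative. The Hsp70 copies are nearly identical, and 2 of the entries overlap at Hsp70Aa, so these 6 are not separate cases.

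In muscle, 4 of 37 tested sarcomere entries had negative differences, against 0.551% of all tested entries. Act57B had 43.7 FPKM in Nxt1 prepupae and 347.3 FPKM in Nxt1 stationary larvae, against 40.1 and 84.2 FPKM in w1118 prepupae and stationary larvae (difference -1.92 ± 0.28, adjusted p 2.6e-08). The others were Mlc1 at -1.85 ± 0.36, Mlc2 at -1.37 ± 0.35 and Mhc at -2.41 ± 0.55 (adjusted p 9.4e-05, 0.015 and 0.0031). All 4 stood above w1118 in stationary larvae. In prepupae Mlc1 had 21.9 FPKM in Nxt1 and 20.1 FPKM in w1118, Mlc2 had 8.54 FPKM in Nxt1 and 4.94 FPKM in w1118, and Mhc had 2.41 FPKM in Nxt1 and 1.58 FPKM in w1118. Act57B and Mlc1 were thus close to w1118 in prepupae, and Mlc2 and Mhc were still above it.

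Of 46 tested entries of the digestive list, 6 had negative differences. They were Amy-p (-2.83 ± 0.51, adjusted p 1.6e-05), Jon25Biii, Jon99Ciii, Jon99Cii, LysD and mag. Of 42 tested antimicrobial and stress peptide entries, 5 had negative differences, TotC, Dpt, Dro, AttA and IM1, and PGRP-SB2 had 1 positive difference. Over all tested entries, 0.551% were negative and 0.31% positive. AttA had 79.3 FPKM in Nxt1 prepupae and 117.3 FPKM in Nxt1 stationary larvae, against 235.8 and 146.5 FPKM in w1118 prepupae and stationary larvae (difference -1.25 ± 0.30, adjusted p 0.0079). Its neighbour AttB stood above w1118 instead, with 215.4 FPKM in Nxt1 prepupae and 281.1 FPKM in Nxt1 stationary larvae. In w1118, AttB had 77.7 and 58.5 FPKM at these stages, and its difference of -0.79 ± 0.31 was not called (adjusted p 0.50 by the same test). Whether reads were shared between AttA and AttB was not tested. Lsp1alpha and Lsp1beta had differences of -1.35 ± 0.31 and -1.12 ± 0.29 (adjusted p 0.0026 and 0.020). For Tsf1, a transferrin, the genotypes were farther apart in prepupae, with 52.8 FPKM in Nxt1 prepupae and 147.1 FPKM in Nxt1 stationary larvae, against 140.8 and 139.5 FPKM in w1118 prepupae and stationary larvae. It is named here after its values were seen.

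The positive differences included members of the groups that were higher in prepupae. The tanning gene e had 637.1 FPKM in Nxt1 prepupae and 164.8 FPKM in Nxt1 stationary larvae, against 557.8 FPKM in w1118 prepupae and 381.9 FPKM in w1118 stationary larvae (difference 1.40 ± 0.26, adjusted p 3.2e-05). Eig71Ea followed the same pattern, with a difference of 0.90 ± 0.25 (adjusted p 0.045), and Eip78C had one of 1.05 ± 0.25 (adjusted p 0.0062). Of the glue genes Sgs5 was called, with 211.3 FPKM in Nxt1 prepupae and 4886 FPKM in Nxt1 stationary larvae, against 39.7 and 2188 FPKM in w1118 prepupae and stationary larvae (difference 1.25 ± 0.33, adjusted p 0.023). Muc26B and Muc68E, mucin genes, had differences of 1.81 ± 0.28 and 1.54 ± 0.28 (adjusted p 1.0e-07 and 1.4e-05).

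**Figure D5:**
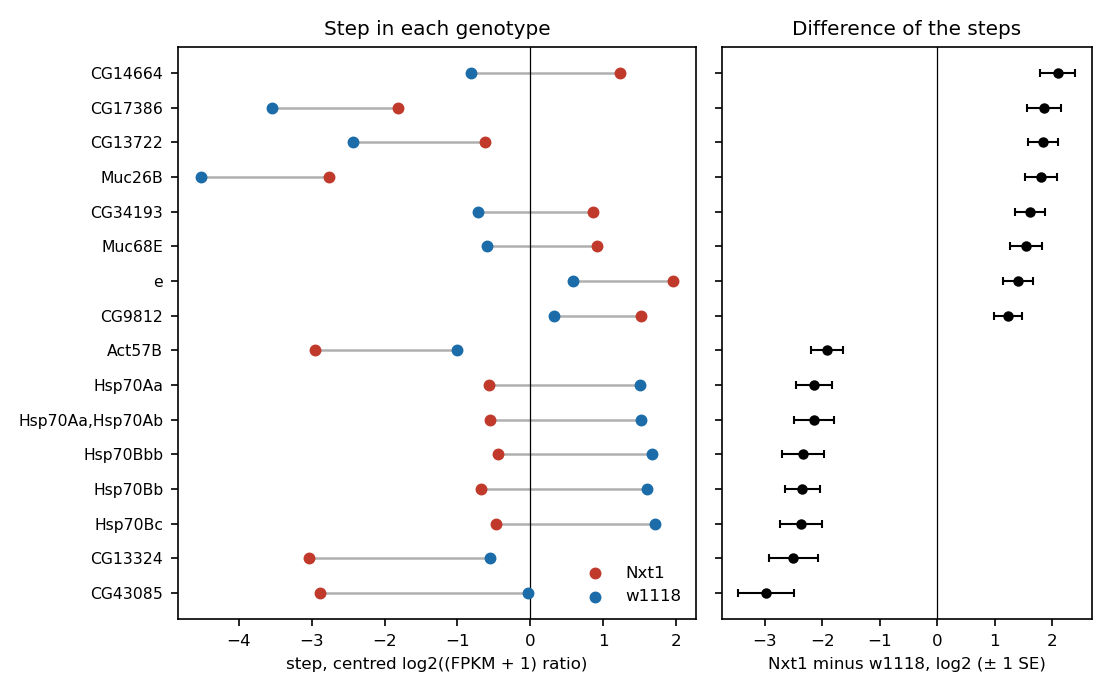
Left, the steps of the 8 positive and 8 negative entries with the smallest p for the step difference and at least 10 FPKM in some group, red for Nxt1 and blue for w1118, as centred log2((FPKM + 1) ratios) of prepupae over stationary larvae. Right, the difference of the log2 ratios, Nxt1 minus w1118, with bars of 1 SE. The Hsp70 entries sit below zero in Nxt1 and above zero in w1118.

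Shares of isoforms within a gene do not depend on the scaling of a stage. Of 3331 genes with several isoforms and 10 FPKM or more at both Nxt1 stages, 87 (2.61%) had an isoform whose share differed by 30 points or more between prepupae and stationary larvae, and the median of the largest change was 4.59 points. For 17 of the 87 that isoform had a deposited status of OK at both stages, and the others held at least 1 value that the authors' software did not test or could not fit. The largest change with that status was in CG11980, where 1 of 3 isoforms had 100% of the summed FPKM in Nxt1 prepupae and 37.3% in Nxt1 stationary larvae, against 100% and 47.3% in w1118 prepupae and stationary larvae. The changes above it, none with that status, included ck, a myosin, with 0.437% in Nxt1 prepupae and 99.0% in Nxt1 stationary larvae, against 43.8% and 0.454% in w1118 prepupae and stationary larvae. Among the ecdysone genes, 1 of the 10 isoforms of Eip75B had 48.2% in Nxt1 prepupae and 18.6% in Nxt1 stationary larvae, against 45.0% and 19.0% in w1118 prepupae and stationary larvae. For EcR 1 of 10 isoforms had 31.6% in Nxt1 prepupae and 9.06% in Nxt1 stationary larvae, against 26.5% and 10.9% in w1118. For Eip74EF 1 of 4 isoforms had 10.8% in Nxt1 prepupae and 35.4% in Nxt1 stationary larvae. In w1118 prepupae and stationary larvae that Eip74EF isoform had 6.28% and 11.7%, a smaller change. Of these 3, the status was OK at both stages for Eip74EF, and the isoforms of Eip75B and EcR were marked as having too little data to test. Isoforms are given by share and not by name, because the deposited identifiers do not name them.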

How the data were processed

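RNA from whole animals was made into ScriptSeq libraries and sequenced as 100-base paired ends on an Illumina HiSeq, per the labels' protocols, and Bowtie 1.1.1, Cufflinks and Cuffdiff are named in the submitters' processing notes. The deposited tables hold FPKM values, 1 per genotype and stage, with a test statistic (a score), a p-value and a status, per the file headers. Counts, depths and replicate values are not in the tables used here, so no interval or replicate check of a level could be made.

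The Nxt1 columns of the prepupal and stationary tables were joined by entry, and the step was formed with a pseudocount of 1. The SE of a deposited genotype log2 fold change is its size divided by that of the statistic, and the deposited p-value lay within 0.001 of the normal tail for 100% of tested entries. The deposited fold changes were recomputed from the FPKM. Nothing says that the 3 samples of a group came from separate cultures. The SE rests on the estimate of the submitters' software and was not measured from replicate values here. Genes as different as Rpt3, mys and blw had nearly the same SE of the step difference (0.240, 0.240 and 0.241). The p-values, SEs and error ceilings are therefore no direct measure of the spread of a gene between these samples. Reads of overlapping genes or near-identical copies cannot be separated, and 448 entries hold several symbols.

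The comparison, its members and the 31 gene lists were chosen with earlier results of these data known. In the lists, 44 symbols matched no entry. Genes named were drawn from the following sets, and not every member is printed. The sets were fixed genes (Nxt1, sbr, abba, w, y), the 12 highest and lowest steps and the 4 highest and lowest with CG or CR numbers. They also held all members of 4 ecdysone and salivary lists. From other lists came the 4 largest steps of 5 FPKM or more and the 2 most abundant genes. The last set was the 8 step differences of smallest p in each direction. Other genes were named after their values were seen. Python 3.11.15, pandas 2.3.3, numpy 2.4.6, scipy 1.17.1 and matplotlib 3.10.9 were used.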

Additional observations from a re-analysis of the deposited data

Results flagged for a closer look

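A difference between the genotypes in their step, by a test of the difference itself (two-sided normal test, Benjamini-Hochberg adjusted over all entries), set apart 32 entries with a positive and 57 with a negative difference, Nxt1 minus w1118 on the log2 scale. The 8 positive ones of smallest p were CG14664 at 2.1, CG17386 at 1.86, CG13722 at 1.84, Muc26B at 1.81, CG34193 at 1.61, Muc68E at 1.54, e at 1.4 and CG9812 at 1.23. Of these, CG14664 had 219.0 FPKM in Nxt1 prepupae and 93.4 FPKM in Nxt1 stationary larvae, against 86.0 and 156.8 FPKM in w1118 prepupae and stationary larvae, so that the 2 steps had opposite signs. CG13722 had 112.7 FPKM in Nxt1 prepupae and 176.3 FPKM in Nxt1 stationary larvae, against 62.9 and 352.6 FPKM in w1118 prepupae and stationary larvae.

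The 8 negative ones of smallest p were CG43085 at -2.97, CG13324 at -2.51, Hsp70Bc at -2.38, Hsp70Bb at -2.35, Hsp70Bbb at -2.34, Hsp70Aa at -2.15, the merged entry Hsp70Aa,Hsp70Ab at -2.15 and Act57B at -1.92. CG43085 had 8.02 FPKM in Nxt1 prepupae and 66.7 FPKM in Nxt1 stationary larvae, against 16.04 and 17.0 FPKM in w1118 prepupae and stationary larvae. The Hsp70 entries share near-identical sequence, so reads counted for one may stem from another. Without adjustment 435 of 10338 entries (4.21%) had a p under 0.05, a share below the 5% that such a test gives where nothing differs.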

How the results depend on the processing

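No paired analysis was possible because the tables hold no values per replicate; for the same reason no sample could be left out. The count of entries at least 2-fold higher in Nxt1 prepupae, 333, became 201 with a pseudocount of 5 and 212 over the 6071 entries with 1 symbol and no shared locus, where the share was 3.49% against 3.15%, and the count of lower entries, 804, became 449 with a pseudocount of 5 and 523 over the 9854 entries whose deposited status was OK at both stages, where the share was 5.31% against 7.6%. A pseudocount of 5 shrinks the steps of low entries by construction. Over these settings the higher entries made up between 26.6% and 34.6% of those past 2-fold, against 29.3%. The counts of positive and negative step differences, 32 and 57, became 21 and 36 at an adjusted p of 0.01, 5 and 7 with the SE raised by a factor of 1.5, and 6 and 1 over start-site groups, where 10 of the 89 genes could be tested at all. With the raised SE the entries still called were CG13722, CG14664, Muc26B, CG34193 and CG17386 among the positive ones, and Hsp70Bb, Hsp70Aa, Hsp70Bc, Hsp70Bbb, the merged entry Hsp70Aa,Hsp70Ab, Act57B and CG43085 among the negative ones; all other named differences lost their call. The count of isoform share changes, 87, became 136 at 5 FPKM or more, 242 at 20 points and 39 over start-site groups. No named step past 2-fold changed direction; among list medians close to zero, those of ribosomal proteins, mitochondrial ribosomal proteins, heat shock proteins, mRNA export, insulin and growth, neuropeptides, neuronal genes, respiratory chain and strain markers took either sign, depending on the centring. Depth is unknown, so levels near 1 FPKM are the least certain.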
